A study of Mus musculus with 10 samples.

Results

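The carbonic anhydrases are zinc enzymes that interconvert carbon dioxide and water with bicarbonate and protons. 10 members of the mouse family, Car1, Car2, Car3, Car4, Car7, Car8, Car9, Car12, Car13 and Car14, were taken by gene symbol from the probe-to-gene table of the array, out of 19505 genes with a symbol. Each of the 10 had 1 probe set. They were measured in mouse intestinal organoids, miniature epithelia grown in culture, on 5 arrays labelled KO and 5 labelled WT for IκBα, the inhibitor encoded by Nfkbia that holds NF-kB outside the nucleus. The labels give one mark, P6, to all samples, which was not interpreted, and name no allele, Cre driver or treatment. No label tells if the replicates were separate mice or separate wells, and the p-values reflect the variation among these 10 arrays, part of which may be technical. The series title concerns a fetal phenotype of intestinal stem cells without IκBα.

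In intestinal epithelium, cytosolic carbonic anhydrases supply bicarbonate and protons to exchangers in the apical and basolateral membranes, which take up salt, secrete bicarbonate and protect the surface from acid. Membrane-anchored members do the same reaction on the outer face of the cell. Some members have lost the zinc-binding residues and have no enzyme activity. Car9 is known as a gene switched on by low oxygen through hypoxia-inducible factors.

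Levels are log2 values made by the authors with RMA, and a difference is the KO mean minus the WT mean. Background is the 95th percentile of each array's negative control probe sets, 7.17 to 7.77 over the arrays. Where a group did not exceed it on every array, the measured difference is set against a level that holds background. For genes that passed, a floor is then given as "at least N-fold", with that group's levels raised to background. No floor is given where the other group's mean was not above the raised level. Nfkbia was at 5.06 ± 0.31 in KO and 9.19 ± 0.38 in WT (SD, n = 5 each), a difference of -4.13 (limma, adjusted p = 2.81e-08), or at least 3.35-fold lower in KO. All 9 epithelial markers were above background on every array, but 3 rose, 4 fell and 2 did not pass. Cdx2, a transcription factor of intestinal identity named after its values were seen, had the lowest mean, 8.53 in KO and 10.69 in WT, and fell by 2.16 (limma, adjusted p = 2.05e-04). The Y-linked transcripts Eif2s3y, Uty and Kdm5d were also lower in KO on every array, by 5.20, 4.47 and 2.42. The floors were at least 3.46-fold for Eif2s3y and 1.32-fold for Uty, and Kdm5d lay under background on all 10 arrays. Y-linked signal thus moved with the KO label, and its part in the differences below was not tested. For the 63 spike-in control RNAs the median difference was -0.12 and the greatest size was 0.55.

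The promoters of the transmembrane members are shown because hypoxia-inducible factors bind the core ACGTG or GCGTG, and Car9 was the member whose KO arrays disagreed most. Each sequence is the 250 bases before the annotated start from RefSeq (GRCm38.p6), 5′ to 3′ on the gene's strand, with a hypoxia core on any strand in capitals.
Car9, chr4:43506776-43507025, plus strand: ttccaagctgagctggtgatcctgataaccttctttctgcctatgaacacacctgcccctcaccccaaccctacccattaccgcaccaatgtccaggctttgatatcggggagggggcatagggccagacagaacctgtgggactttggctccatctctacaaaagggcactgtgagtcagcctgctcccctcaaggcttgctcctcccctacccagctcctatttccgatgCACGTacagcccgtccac
Car12, chr9:66713436-66713685, plus strand: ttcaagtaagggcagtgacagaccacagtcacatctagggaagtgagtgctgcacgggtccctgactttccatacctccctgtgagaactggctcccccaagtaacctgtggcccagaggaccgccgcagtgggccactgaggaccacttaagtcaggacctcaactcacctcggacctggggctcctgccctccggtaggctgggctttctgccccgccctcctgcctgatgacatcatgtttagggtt
Car14, chr3:95904686-95904935, minus strand: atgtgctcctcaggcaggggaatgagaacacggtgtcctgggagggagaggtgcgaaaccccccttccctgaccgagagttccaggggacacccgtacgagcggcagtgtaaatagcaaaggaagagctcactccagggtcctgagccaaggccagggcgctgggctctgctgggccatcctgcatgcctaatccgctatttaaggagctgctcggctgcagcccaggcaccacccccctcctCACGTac
The Car9 window held ACGTG on the opposite strand (CACGT as printed) at 18 to 14 bases before the start. The Car14 window held it, also on the opposite strand, at 7 to 3 bases before the start. The Car12 window held no copy of ACGTG or GCGTG. Of 32851 promoter windows of this length, 16.6% held ACGTG and 28.2% held GCGTG, searched on both strands. ACGTG is also part of the E-box CACGTG, which other factors bind, and none of the 3 windows held that longer word. The AP-1 word TGANTCA, where N is any base, occurred in the Car9 window at 77 to 71 bases before the start and in 6.75% of all windows. The NF-kB consensus was in none of the 3 and in 17.6% of all windows. A match is a description of the letters, and an absent match says only that these letters were not in this window. Windows were also present for Car4 and Car7, without ACGTG in either. GCGTG was absent from the Car4 window and present in windows of Car7, at 76 to 72, 10 to 6 and 94 to 90 bases before their starts. The NF-kB consensus was present in the Car4 window and in windows of Car7.

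Only Car2 passed the test among the 10. It rose at least 12.4-fold in KO, and no member fell. The other 9 did not pass (limma, Benjamini-Hochberg over 19572 probe sets). At an unadjusted p under 0.05, 2 members were higher and 1 was lower. Over all genes 26.7% of probe sets passed, 15% higher and 11.7% lower, so 1 of 10 is no more than the share over all genes. The median difference was -0.05 over the members and -0.01 over all probe sets tested. For 6 members, Car1, Car3, Car4, Car7, Car13 and Car14, the difference was under 0.25 in size.

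**Figure D1:**
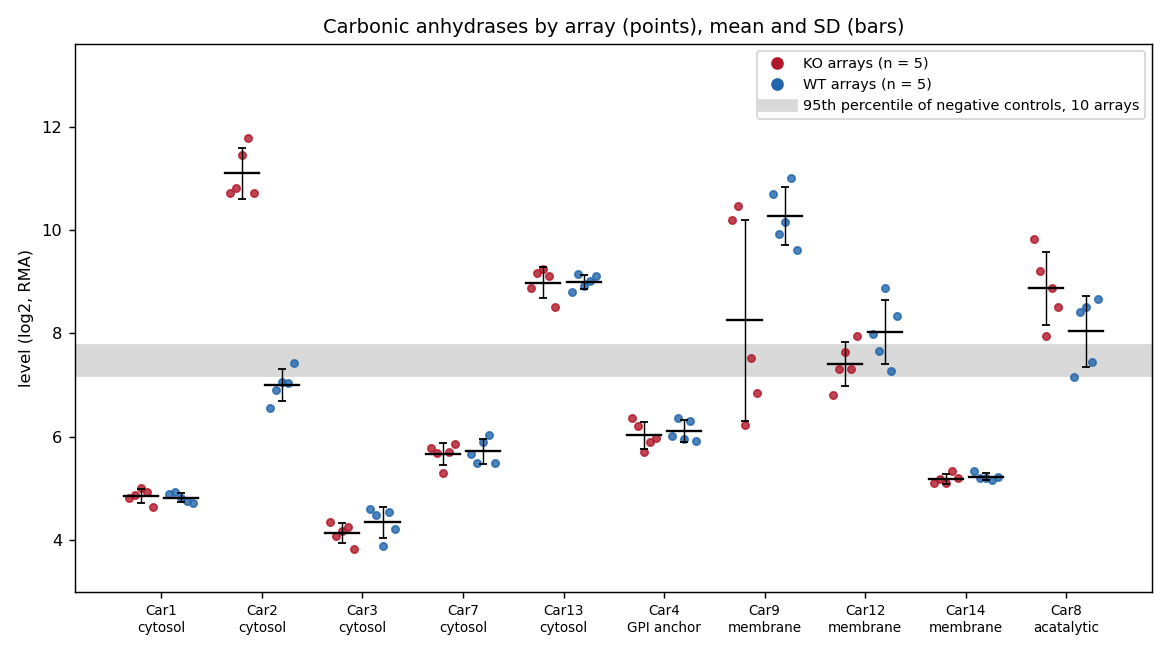
Log2 level of each carbonic anhydrase (vertical axis) on the KO arrays, left of each pair, and the WT arrays, right, with mean and SD as bars and the grey band giving the range over arrays of the 95th percentile of negative controls. Car2 stands above 10.7 on all KO arrays and at 7.42 or less on all WT arrays, and Car9 spans 6.22 to 10.46 among KO arrays.

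Car2 is the cytosolic isozyme of high activity found in red cells, kidney, stomach and intestine. Its levels were 10.72, 10.81, 11.46, 11.78 and 10.72 on KO arrays 1 to 5. On WT arrays 1 to 5 they were 6.56, 6.91, 7.06, 7.04 and 7.42. Every KO array lay above every WT array by more than 3 log2 units, and the groups did not overlap, as held for 21.4% of all probe sets. The means were 11.10 ± 0.49 in KO and 6.999 ± 0.31 in WT (SD, n = 5 each). The difference was 4.10 with a standard error of 0.23 and a 95% confidence interval of 3.59 to 4.60 (limma, adjusted p = 1.11e-07). Of the 19572 probe sets tested, 78 had a difference at least as large and of the same sign, or 0.399%. All 5 KO arrays and 1 WT array lay above the 95th percentile of the negative control probe sets, which ran from 7.17 to 7.77 over the arrays. The WT mean lay above 93.1% of the negative controls. The measured ratio was 17.1-fold.

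Car2 is made in several cell types other than enterocytes. Of 3 gastric parietal markers measured, none passed (limma, smallest unadjusted p = 0.245), and their summed log2 level was 8.02 to 8.59 in KO and 8.28 to 8.65 in WT. Named after their values were seen, Atp4b and Kcne2 lay under background on all 10 arrays. Atp4a lay above it on 4 KO and 5 WT arrays. Of 3 erythroid markers measured, none was higher and Epb42, named after its values were seen, was lower. All 3 erythroid markers lay under background on all 10 arrays, where a change would be hard to see. Their summed level was 6.45 to 7.001 in KO and 6.88 to 7.58 in WT. The globins and glycophorin were not analysed here. In bulk organoids, more cells that make a transcript and more transcript per cell cannot be told apart. Of 4 goblet markers 2 fell and none rose, with a summed level of 10.09 to 13.63 in KO and 12.73 to 13.54 in WT. The part of these cell types in the Car2 result was not tested.

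Car2 lies on chromosome 3 beside Car13, Car1 and Car3, all encoding cytosolic enzymes, in the order Car13, Car1, Car3, Car2. Car13, which is expressed in many tissues including the gut, had 8.88, 9.16, 9.25, 9.11 and 8.52 in KO and 8.80, 9.14, 8.92, 9.01 and 9.11 in WT. It was the only member above the 95th percentile of the negative controls on all 10 arrays, and its groups overlapped entirely. The difference was -0.01, with an interval of -0.33 to 0.30 (limma, adjusted p = 0.960). Car1, the isozyme of red cells and colon epithelium, stood at 4.65 to 5.01 in KO and 4.72 to 4.93 in WT, with a difference of 0.03 (interval -0.18 to 0.25). Car3, the low-activity isozyme of muscle, liver and fat, stood at 3.83 to 4.36 in KO and 3.88 to 4.61 in WT, with a difference of -0.21 (interval -0.54 to 0.13). Both lay below that percentile on every array, where a change would be hard to see.

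Within each array the Car2 level was set against its neighbours. Car2 minus Car13 was 2.11 ± 0.40 in KO and -1.997 ± 0.24 in WT (SD, n = 5 each), a difference of 4.11. The lowest KO value, 1.64, was above the highest WT value, -1.68. For Car2 minus Car1 the difference between groups was 4.06, and for Car2 minus Car3 it was 4.30. No test is given, since the gap in Car2 alone separates the groups, and the values for Car1 and Car3 rest on probe sets at background. Of the nearest measured genes on the far sides, Lrrcc1 differed by 0.45, E2f5 by 0.27, Rbis by 0.20, Gm9733 by 0.21, Sirpb1c by 0.42 and Gm5150 by 0.07. None of these 6, named by position, passed (limma, adjusted p of 0.0596 or more).

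**Figure D2:**
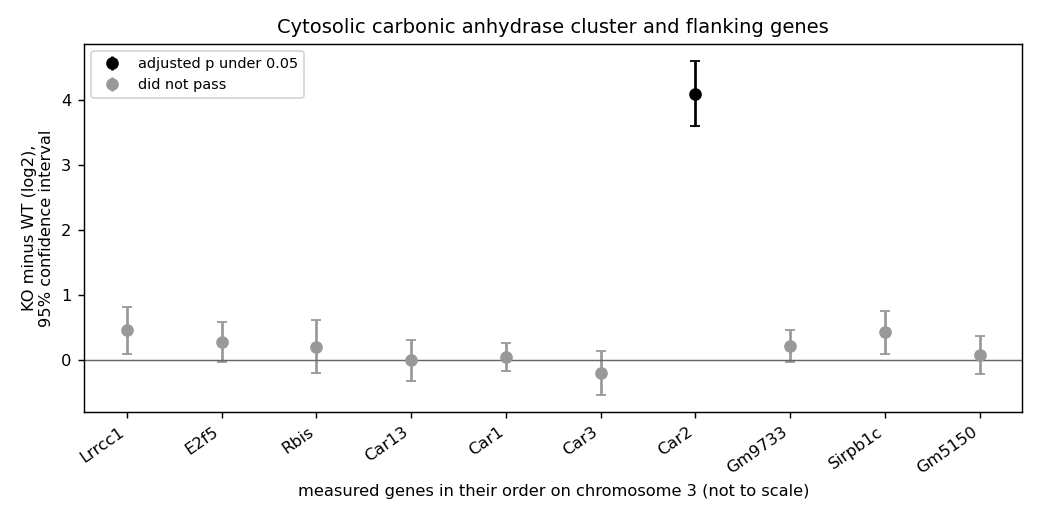
KO minus WT difference in log2 level with its 95% confidence interval (vertical axis) for 10 measured genes in their order along chromosome 3, drawn at equal spacing. Car2 stands at 4.10, while the other 9 lie between -0.21 and 0.45 with grey symbols for genes that did not pass.

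Car7, a cytosolic isozyme best known from brain, stood at 5.30 to 5.85 in KO and 5.48 to 6.04 in WT. Its difference was -0.06, with an interval of -0.37 to 0.26 (limma, adjusted p = 0.822). It lay below the 95th percentile of the negative controls on all arrays. 5 of the 10 members did so, namely Car1, Car3, Car4, Car7 and Car14.

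Of the members anchored in the outer membrane, Car4 is held by a lipid anchor and is known from the brush border and from the colon surface. Its level was 5.69 to 6.37 in KO and 5.91 to 6.36 in WT, and the difference was -0.08 (interval -0.40 to 0.24). Car14, a transmembrane isozyme of kidney, liver and retina, stood at 5.11 to 5.34 in KO and 5.17 to 5.34 in WT, and the difference was -0.04 (interval -0.24 to 0.15). Neither passed (limma, adjusted p = 0.741 for Car4 and 0.774 for Car14).

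Car12 is a transmembrane isozyme found in colon, kidney and many tumours. Its levels were 6.81, 7.31, 7.64, 7.31 and 7.95 on KO arrays 1 to 5. On WT arrays 1 to 5 they were 7.99, 7.65, 8.87, 7.27 and 8.34. WT arrays 1, 3 and 5 were above every KO array, and WT arrays 2 and 4 lay within the KO range. Car12 was above background on 3 KO arrays and 4 WT arrays, so its difference holds background. The means were 7.40 ± 0.43 in KO and 8.02 ± 0.62 in WT (SD, n = 5 each), and the difference was -0.62 (interval -1.26 to 0.02). It did not pass (limma, adjusted p = 0.147), but without WT replicate 4 it was -0.81 (adjusted p = 0.0494).

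Car9, a transmembrane isozyme with an extracellular catalytic domain, spread more among the KO arrays than any other member did in any group. It stood at 10.19 and 10.46 on KO arrays 1 and 2, and at 6.22, 7.53 and 6.86 on KO arrays 3, 4 and 5. Car9 was under background on KO arrays 3 and 5 and close to it on KO array 4 (7.53 against 7.48). The KO mean, its SD and the difference below thus hold background. On WT arrays 1 to 5 the levels were 10.69, 9.92, 10.16, 10.997 and 9.62. KO arrays 1 and 2 lay within the WT range, and the other 3 KO arrays lay more than 2 log2 units under the lowest WT array. The KO mean was 8.25 ± 1.95 and the WT mean 10.28 ± 0.56 (SD, n = 5 each). Only 0.0664% of tested probe sets had an SD among KO arrays as large as that of Car9. The difference of -2.02 had a standard error of 0.76 and an interval of -3.70 to -0.35, and it did not pass (limma, adjusted p = 0.0735). Without KO replicate 1 it was -2.51 (adjusted p = 0.0257) and without KO replicate 2 it was -2.58 (adjusted p = 0.0158).

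A list of hypoxia-induced genes was read beside Car9. Of 26 measured, 6 were higher in KO, 1 was lower and 19 did not pass, with a median difference of 0.12. The share that passed at an adjusted p under 0.05 is close to the 26.7% of all probe sets that did so. At an unadjusted p under 0.05, 9 were higher and 7 were lower. The share of all probe sets at that unadjusted threshold was not worked out, so these 2 counts have no background beside them. The counts depended on single arrays: 5 were lower without KO replicate 2, 4 without WT replicate 5, and 2 without KO replicate 5 or WT replicate 1. The secreted glycoprotein gene Stc2 rose by 2.76, hexokinase Hk2 by 1.10 and the lipid droplet gene Hilpda by 0.83, and Pfkfb4, a regulator of glycolysis, fell by 1.67 (limma, adjusted p at most 0.00309). Against background the floors were at least 4.90-fold higher for Stc2, 1.19-fold higher for Hilpda and 2.22-fold lower for Pfkfb4. Egln3, a hydroxylase that marks hypoxia-inducible factors for breakdown and was named after its values were seen, rose by 1.17. The mean centred level of the 26 genes was 0.15, 0.67, -0.52, 0.16 and 0.11 on KO arrays 1 to 5. Both Car9 and the list were highest on KO array 2 and lowest on KO array 3 among the KO arrays. For the list, KO arrays 4 and 5 were close to KO array 1, whose Car9 level was more than 2 log2 units higher. On WT arrays 1 to 5 the list stood at -0.06, -0.46, 0.15, 0.40 and -0.60. Among the WT arrays both were highest on array 4 and lowest on array 5. The relation of Car9 to the list was not tested.

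The genes whose centred levels lay nearest to Car9 over the 10 arrays were the ubiquitin ligase Rnf186, the glutathione transferase Gstp3 and the clock transcription factor Npas2. Likeness was the root mean square difference over 10 arrays among 18461 genes, and it was 0.62, 0.76 and 0.80 log2 units. These were looked up after Car9's values were seen, and they are a description with no test. Rnf186 stood at 8.74, 9.46, 6.89, 8.01 and 7.13 in KO and at 9.40 to 10.42 in WT. Its 3 lowest KO arrays were those of Car9, which the choice by likeness makes likely in advance. Rnf186 passed with 3 KO arrays above background, and no floor was worked out for it. The lactate exporter gene Slc16a3, also named after its values were seen, had 8.63, 9.13, 6.66, 8.28 and 7.14 in KO and 8.54 to 10.00 in WT, and did not pass (difference -1.04, limma, adjusted p = 0.118).

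**Figure D3:**
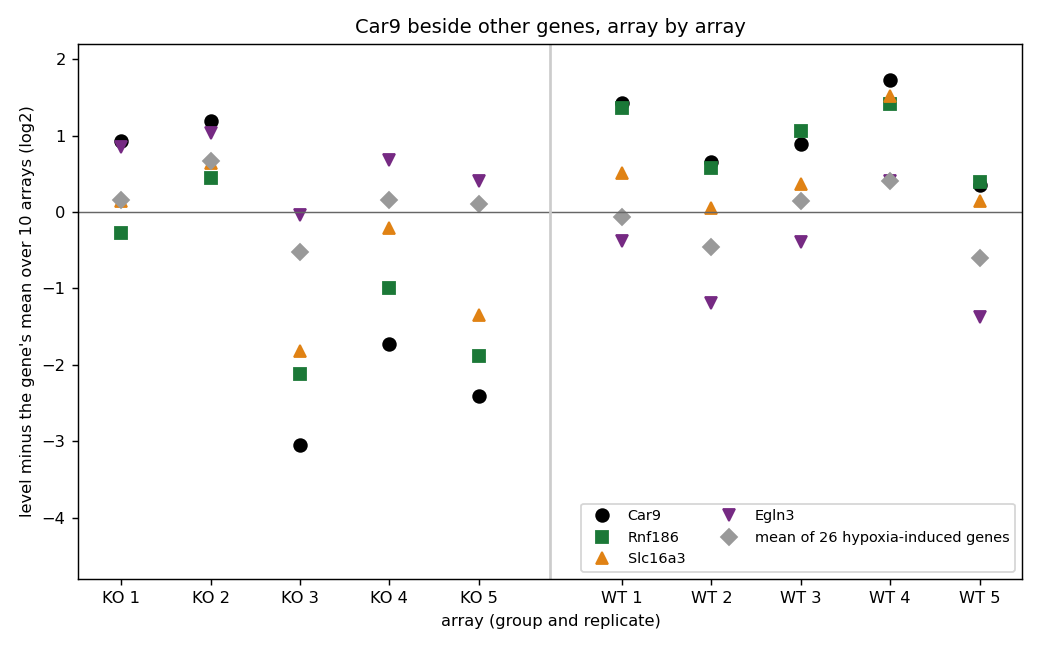
Level minus the gene's mean over 10 arrays (log2, vertical axis) on each KO and WT array for Car9, Rnf186, Slc16a3 and Egln3, and the mean of 26 hypoxia-induced genes. Car9 lies above 0 on KO arrays 1 and 2 and all WT arrays and well below 0 on KO arrays 3 to 5, while the 26-gene mean stays between -0.60 and 0.67.

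Car8 has no enzyme activity and is known for binding an inositol trisphosphate receptor in cerebellar neurons. Its levels were 9.82, 9.20, 7.94, 8.87 and 8.51 on KO arrays 1 to 5. On WT arrays 1 to 5 they were 7.15, 8.42, 8.50, 7.45 and 8.66. KO arrays 1, 2 and 4 lay above all WT arrays, while KO arrays 3 and 5 lay within the WT range. Car8 was above background on all 5 KO arrays and on 3 WT arrays, so its WT mean holds background. The means were 8.87 ± 0.71 in KO and 8.04 ± 0.69 in WT (SD, n = 5 each). The difference was 0.83, with an interval of 0.00 to 1.66, and did not pass (limma, adjusted p = 0.135).

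All 8 other genes with a carbonic anhydrase fold were measured. 2 rose, Car5b and Ptprz1, none fell and 6 did not pass (limma, with 2 lower at an unadjusted p under 0.05). A count of 2 of 8 is no more than the 26.7% of all probe sets that passed. Car5b encodes a mitochondrial isozyme. It stood at 5.81, 6.26, 5.66, 5.80 and 6.03 in KO and at 4.86, 4.73, 4.79, 5.01 and 4.83 in WT. The groups did not overlap, and the difference was 1.07 with a standard error of 0.12 (limma, adjusted p = 4.48e-05). Car5b is X-linked and its rise went with the lower Y-linked signal. Among 800 X-linked probe sets, 97, or 12.1%, rose and 63 fell, with a median difference of -0.01. Over all probe sets 15% rose and 11.7% fell. Ptprz1, a receptor phosphatase with a carbonic anhydrase-like domain outside the cell, had 4.60, 5.70, 6.51, 6.20 and 6.40 in KO and 3.19, 3.14, 3.52, 3.57 and 3.61 in WT. The lowest KO array was above the highest WT array, and the difference was 2.48 with a standard error of 0.31 (limma, adjusted p = 9.37e-05). Both genes stayed below the 95th percentile of the negative controls on all 10 arrays.

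The mitochondrial Car5a differed by -0.22, the salivary secreted Car6 by 0.30, the acatalytic Car10 by 0.18 and Car11 by 0.33. The lipid-anchored Car15 differed by -0.27 and the receptor phosphatase Ptprg by -0.42 (limma, adjusted p = 0.0923). Ptprg passed at -0.45 with array weights (adjusted p = 0.0398) and at -0.51 without WT replicate 4 (adjusted p = 0.0424), and without WT replicate 2, Car6 passed at 0.41 (adjusted p = 0.0407).

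**Figure D4:**
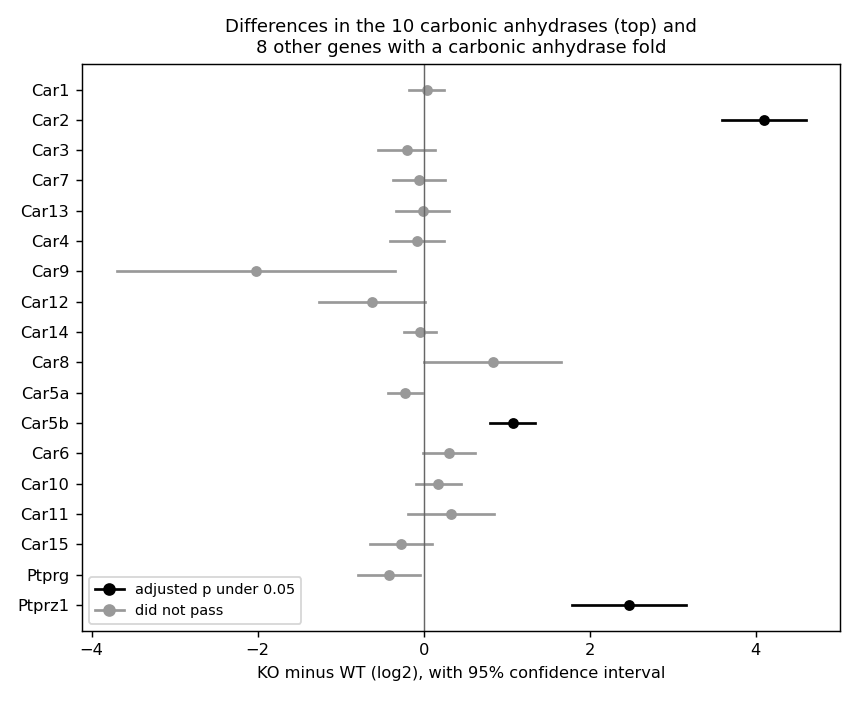
KO minus WT difference in log2 level with its 95% confidence interval (horizontal axis) for the 10 carbonic anhydrases, top, and 8 other genes with a carbonic anhydrase fold, with black for genes that passed and grey for those that did not. Car2, Ptprz1 and Car5b are black, at 4.10, 2.48 and 1.07, and Car9 has the widest interval.

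The genes nearest to Car2 over the 10 arrays were the receptor gene Pear1, the urokinase receptor Plaur and the guidance factor Sema3e, at root mean square differences of 0.30, 0.32 and 0.35. Pear1 stood at 8.47, 8.68, 8.95, 9.15 and 8.78 in KO and at 4.64, 5.03, 5.29, 5.16 and 5.71 in WT. Plaur stood at 10.10 to 10.65 in KO and 6.30 to 7.03 in WT. Sema3e stood at 9.42 to 10.04 in KO and 5.54 to 5.90 in WT. All 3 passed (limma, adjusted p = 6.31e-08 for Pear1 and less for the others). They lay above background on every KO array and under it on every WT array. Their WT levels, and the likeness to Car2 on the WT arrays, thus hold background, and no floor was worked out for them. The 3 were picked for likeness to Car2, so separate groups in them follow from the choice. The likeness says nothing of shared function or control.

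Genes of a list drawn up by hand for bicarbonate and chloride transport moved both ways. A gene on the list, Slc4a11 among them, need not itself carry bicarbonate or chloride. Of 21 measured, 6 rose, 4 fell and 11 did not pass, with a median difference of 0.02. The shares over all probe sets were 15% higher and 11.7% lower. The chloride channel Ano1 rose by 4.27, at 11.65 ± 0.18 in KO and 7.38 ± 0.42 in WT (SD, n = 5 each; limma, adjusted p = 1.22e-08). With 2 WT arrays above background, it was at least 16.8-fold higher in KO. The solute carrier Slc4a11 rose by 3.91 and the anion channel and exchanger Slc26a9 by 2.61. Under background on all WT arrays, they were at least 5.34-fold and 2.61-fold higher in KO. The chloride-bicarbonate exchanger Slc26a3, which absorbs salt in distal gut, fell by 4.85, at 5.66 ± 0.08 in KO and 10.51 ± 0.60 in WT (SD, n = 5 each; limma, adjusted p = 3.41e-08). It lay under background on all KO arrays and was at least 8.41-fold lower in KO. Named after their values were seen, the brush border exchanger Slc26a6 fell by 3.20, the chloride and bicarbonate channel Cftr fell by 1.98 and the cotransporter Slc4a5 fell by 1.19. The floors were at least 3.84-fold lower for Cftr and 1.81-fold for Slc4a5. The basolateral bicarbonate cotransporter Slc4a4, the exchanger Slc4a3 and the sulfate carrier Slc26a1, also named after, rose by 0.67, 0.82 and 0.95. Slc4a3 and Slc26a1 lay under background on all 10 arrays, and Slc26a6 on all KO arrays, at least 4.05-fold lower in KO.

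**Figure D5:**
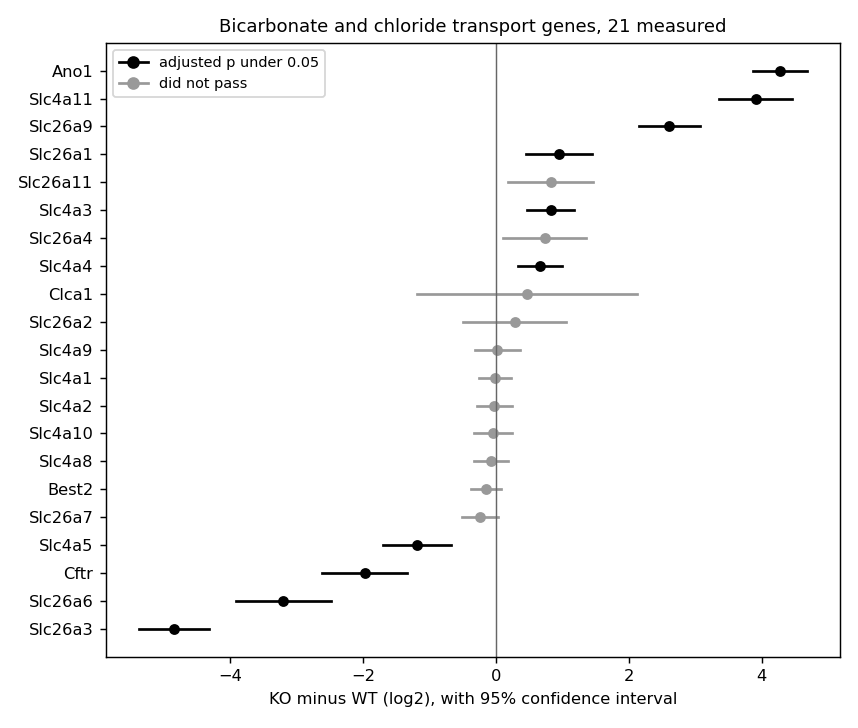
KO minus WT difference in log2 level with its 95% confidence interval (horizontal axis) for 21 measured bicarbonate and chloride transport genes, ordered by size, with black for genes that passed and grey for those that did not. Ano1 stands at 4.27 at the top and Slc26a3 at -4.85 at the bottom.

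Of 16 proton and lactate transport genes measured, 1 rose, 4 fell and 11 did not pass, with a median difference of -0.20. For comparison, 26.7% of all probe sets passed, 15% higher and 11.7% lower. The apical sodium-proton exchanger Slc9a3 fell by 4.04, at 6.05 ± 0.19 in KO and 10.09 ± 0.89 in WT (SD, n = 5 each; limma, adjusted p = 4.03e-06). It lay under background on all KO arrays and was at least 6.29-fold lower in KO. Slc9a2, a related exchanger, fell by 1.66, the lactate transporter Slc16a1 by 0.51 and the sodium pump subunit Atp1b1, named after its values were seen, by 0.47. With 2 KO arrays above background, Slc9a2 was at least 2.30-fold lower in KO. The exchanger Slc9a4 rose by 1.26, with 1 KO array and no WT array above background. Only 2 fell without KO replicate 4, KO replicate 5, WT replicate 1 or WT replicate 5, and 2 rose without KO replicate 3. Of 17 surface colonocyte genes measured, 10 fell, none rose (limma, also 0 at an unadjusted p under 0.05) and 7 did not pass, with a median difference of -1.07. Besides Slc26a3, the chloride channel regulator Clca4a fell by 2.92, the water channel Aqp4 by 4.49 and the peptide Guca2a, which switches on guanylate cyclase, by 3.14. These 3 lay under background on all KO arrays, and Clca4a was above it on 3 WT arrays. The floors were at least 1.13-fold lower for Clca4a, 3.09-fold for Aqp4 and 5.26-fold for Guca2a. The others that fell are named after their values were seen. Mettl7b and Slc37a2 lay under background on all 10 arrays. The floors were 1.46-fold for Ceacam20, 1.80-fold for Slc20a1, 15.2-fold for Guca2b and 18.9-fold for Lypd8. Over all probe sets 11.7% fell. Markers of other epithelial cell types also differed. All 3 enteroendocrine markers and 3 of 4 Paneth markers fell, while 1 Paneth marker, Mmp7, rose. Of 4 tuft cell markers 1 rose, 0 fell and 3 did not pass. The summed enteroendocrine level was 6.22 to 6.61 in KO and 9.94 to 10.62 in WT, and the summed Paneth level was 10.71 to 11.83 in KO and 13.17 to 13.66 in WT. Their part in these differences was not tested. Car1 and Car4, also surface colonocyte genes, were below the 95th percentile of the negative controls on the KO and the WT arrays. So were Aqp8, Saa1, Tmigd1, Dhrs9 and Cd177 of the list, named after their values were seen. The list's name does not tell the gut segment of the organoids, and whether the WT organoids held colonocytes was not tested.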

How the data were processed

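The deposited table gives log2 levels, 1 for every probe set on each array. Per the submitters' processing notes they come from RMA, and limma is named there too. The labels' protocols describe biotin labelling of total RNA with GeneChip WT PLUS reagents. Versions, genome build and whether all arrays were normalized in 1 run are not stated in those sources. The table held 28846 probe sets, 6640 of them controls. Of the other 22206, 19572 had 1 symbol, 0 had several and 2634 are unnamed here. All symbols matched the RefSeq table (GRCm38.p6), used for names, gene order and promoter sequences. The number of arrays limits precision. Within groups Pearson's r over probe sets was at least 0.963.

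No further normalization was applied. limma (version 3.58.1, R 4.3.3) was fitted to all probe sets with KO and WT as groups, with Benjamini-Hochberg adjustment over the 19572 and a threshold of 0.05. Confidence intervals are unadjusted. Where a gene had several probe sets, the brightest on average was used. 5222 negative control probe sets gave the background level.

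The members and lists were chosen with earlier results of these data known. The naming rule took all members, Nfkbia, the other carbonic anhydrase-fold genes, the 4 smallest p of each list that passed, and the 3 genes nearest the member with the largest rise and the largest fall. No member fell, so Car9 was added afterwards. Alternatives changed normalization, filter, variance model, array weights, adjustment and probe set rule, added a replicate block, or left out each array. The fit was tested on simulated data.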

Additional observations from a re-analysis of the deposited data

Results flagged for a closer look

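In 4 of 80 groups of 5 arrays examined (40 genes), 1 array stood far from the other 4, by the ratio of its gap to the group's range. Chance flags about 5% of groups, which is as many. None of the 10 carbonic anhydrases was among them. Nfkbia stood at 9.85 on WT array 5, against 8.95 to 9.19 on the other WT arrays. Sema3e stood at 10.04 on KO array 3, against 9.42 to 9.57 on the other KO arrays. Gstp3 stood at 9.22 on WT array 4, against 7.42 to 7.79 on the other WT arrays. Guca2a stood at 9.32 on WT array 3, against 9.86 to 10.03 on the other WT arrays.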

How the results depend on the processing

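The count of 1 member higher in KO held under every alternative run, with Car2 between 3.93 and 4.20 and an adjusted p of 6.84e-06 or less (limma). The count of 0 members lower was 1 with array weights, where Car9 passed at -2.09 (limma, adjusted p = 0.0325), and lay between 0 and 1 when arrays were left out in turn. Same-numbered KO and WT arrays deviated together (correlation over 0.1) for 2 of 5 numbers, and 2 of 5 correlated best with their own number, so the numbers were not taken as pairs. With the replicate block the count of lower members stayed at 0 and the count of higher members at 1, with Car2 at an adjusted p of 6.84e-06 and Car9 at 0.0559, and the block changed no other call among the carbonic anhydrase-fold genes. Car7 was 0.043 with array weights, with the sign turned. Leaving out arrays turned signs in members that did not pass: Car1 lay between -0.0027 and 0.087, Car4 between -0.17 and 0.0011, Car7 between -0.12 and 0.033 and Car13 between -0.080 and 0.10. With the dimmest probe sets left out, Ptprz1 and the member Car3 were not tested and 1 of the other fold genes rose. With array weights 1 of those genes, Ptprg, fell. Hypoxia-induced genes with array weights numbered 10 higher and 3 lower. The median of all probe sets moved by less than 0.1 under each scaling. Signal over background limits the result, since 5 of 10 members lay below the 95th percentile of the negative controls on every array.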
